A study of Mus musculus with 18 samples.

Results

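The transcriptional coactivators *Yap1* and *Wwtr1* (Taz), their DNA-binding partners *Tead1* and *Tead2*, the target genes *Ctgf*, *Cyr61*, *Ankrd1* and *Amotl2*, and the kinase gene *Lats2* were followed through bulk RNA-Seq of embryonic mouse lungs. These 9 genes were chosen by name, and each was found by its symbol among the 23420 genes of every table. RNA of whole lungs was sequenced in 3 experiments with 18 libraries in all, each experiment with 3 mutant libraries and 3 libraries of its own controls. In the *Vangl1/2* experiment at E12.5 the controls were *Vangl1*-/- and the mutants *Vangl1*-/-; *Vangl2*-/-, so that both groups carried the *Vangl1* gene-trap allele (gt/gt) and differed in *Vangl2*, deleted from a floxed allele by the ubiquitous Sox2-Cre. In the Dermo1-Cre experiment, also at E12.5, controls were *Wnt5a* f/+; Dermo1 Cre and mutants *Wnt5a* f/f; Dermo1 Cre, with Cre driven from the *Dermo1* (*Twist2*) locus in the mesenchyme. In the Sox9-Cre experiment at E13.5, controls were *Wnt5a* f/+; Sox9 Cre and mutants *Wnt5a* f/f; Sox9 Cre, with Cre active in the lung epithelium once branching had begun. Every control of the *Wnt5a* experiments thus carried Cre and 1 intact *Wnt5a* allele. How many embryos went into a library was not stated in the sources used here, and p-values measure the spread between these libraries.

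In the Hippo pathway, the Mst kinases activate the Lats kinases, which phosphorylate Yap and Taz and hold them in the cytoplasm. When cells spread, adhere or are stretched, Yap and Taz enter the nucleus, bind Tead factors and switch on genes such as *Ctgf*, *Cyr61* and *Ankrd1*. *Amotl2* and *Lats2* are targets too, but their products restrain Yap, which closes a negative feedback loop. In the embryonic lung, Yap is known for its part in the branching epithelium and in airway progenitors. *Wnt5a* is a ligand and *Vangl1/2* are core components of planar cell polarity, and the experiments ask how lung gene expression changes when they are lost. Since Yap and Taz are controlled mainly by phosphorylation and location, an mRNA count measures neither.

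The sequence that Tead factors bind is known as the MCAT element, with the core GGAATG. This core was searched on both strands (GGAATG or CATTCC) in the 250 bases before the RefSeq start sites of the members (GRCm38.p6), and promoters of 7 members were matched. It was found before 5 of them, *Yap1*, *Wwtr1*, *Cyr61*, *Ankrd1* and *Amotl2*, and its letters were not in these windows of *Tead2* and *Lats2*. Of 32851 promoters of the same length in the table, 12.6% hold it. The windows of *Cyr61* and *Ankrd1* are shown whole because these genes serve as readouts of Yap and Taz, with the core in capitals. They run 5′ to 3′ on the strand of the gene, up to the base before the start site. The *Cyr61* window is chr3:145649986-145650235 and the *Ankrd1* window chr19:36119845-36120094, both on the minus strand.
Cyr61: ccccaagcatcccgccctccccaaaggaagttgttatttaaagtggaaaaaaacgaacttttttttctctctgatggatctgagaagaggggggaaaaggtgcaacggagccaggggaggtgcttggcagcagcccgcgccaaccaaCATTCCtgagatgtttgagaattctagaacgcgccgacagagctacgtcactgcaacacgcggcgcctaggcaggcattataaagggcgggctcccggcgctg
Ankrd1: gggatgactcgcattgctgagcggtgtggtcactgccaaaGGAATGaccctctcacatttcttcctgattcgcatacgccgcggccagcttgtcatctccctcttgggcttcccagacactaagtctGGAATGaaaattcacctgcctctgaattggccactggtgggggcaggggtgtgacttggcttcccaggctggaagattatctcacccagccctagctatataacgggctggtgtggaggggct

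Around the cores of the other members, 30 bases are shown to compare what flanks the motif. They come from chr9:8004720-8004749 on the minus strand for *Yap1*, chr3:57576029-57576058 on the minus strand for *Wwtr1*, and chr9:102717727-102717756 on the plus strand for *Amotl2*. Counted from the start site, the core begins at base -141 in *Yap1*, -65 in *Amotl2* and -103 in *Cyr61*. It begins at -210 and -123 in *Ankrd1*, the only member with 2 matches in 1 window. A match of 6 letters is a description of the sequence and does not show that a factor binds there.
Yap1: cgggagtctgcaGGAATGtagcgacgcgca
Wwtr1: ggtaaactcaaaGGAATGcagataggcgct
Amotl2: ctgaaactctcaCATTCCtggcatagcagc

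Values are normalised counts, which are gene counts divided by a size factor of the library. The reads counted on genes numbered 15945393 to 19814346 per library. Size factors were between 0.952 and 1.07, so that a normalised count stands for about 1 read. *Vangl2* checked the labels: its normalised counts were 277, 406 and 334 in the *Vangl1/2* controls and 86.5, 79.8 and 89.6 in the mutants (log2 difference -1.96, SE 0.167, limma adjusted p = 0.032). *Vangl1* transcripts were still counted in both groups, with 162, 219 and 113 normalised counts in these controls and 239, 274 and 242 in the mutants (log2 difference 0.65, SE 0.227, adjusted p = 0.23). *Wnt5a* was 472, 430 and 489 in the Dermo1-Cre controls. In the libraries labelled mutant it was 317, 436 and 230, so that mutant replicate 2 lay within the controls (log2 difference -0.55, SE 0.187, adjusted p = 0.41). In the Sox9-Cre experiment, aimed at the lung epithelium, *Wnt5a* was 473, 453 and 426 in controls and 442, 362 and 448 in mutants (log2 difference -0.12, SE 0.097, adjusted p = 1.0). Which cells had lost *Wnt5a* was not measured in these whole lungs. In the *Vangl1/2* experiment, control replicate 2 stood apart from control replicates 1 and 3. For *Tead1*, replicates 1 and 3 had 1742 and 1464 normalised counts and replicate 2 had 3770. Replicates 1 and 3 lay below all other libraries of the 3 tables, which were scaled separately. Which of the *Vangl1/2* controls is unusual was not tested. The log2 difference rose with transcript length across genes there (Spearman 0.716 over 14186 genes, which are not independent replicates), against 0.25 and -0.034 in the Dermo1-Cre and Sox9-Cre experiments.

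None of the 9 members changed between mutant and control lungs at an adjusted p under 0.05 in any of the 3 experiments. All 9 passed the filter of at least 10 normalised counts in at least 3 libraries in each table. The test was limma on log2(normalised count + 1), two-sided and adjusted over all tested genes. Of all genes tested, 0.00699% were called in the *Vangl1/2* experiment, 0.014% in the Dermo1-Cre experiment and 0.0% in the Sox9-Cre experiment. At an unadjusted p under 0.05 there was 1 member in the *Vangl1/2* experiment (*Tead1*) against 20.5% of all genes, 2 in the Dermo1-Cre experiment (*Tead2* and *Cyr61*) against 10.2%, and 1 in the Sox9-Cre experiment (*Ankrd1*) against 3.9%. By edgeR and by DESeq2 on the recovered reads, 0 members passed the adjusted threshold as well. Each tool had 1 member at an unadjusted p under 0.05 in each experiment. DESeq2 gave no adjusted p for *Ctgf*, *Cyr61* and *Ankrd1* in the *Vangl1/2* experiment, and they were counted as not called. The groups did not overlap for 3 members in the *Vangl1/2* experiment (22.3% of all genes), 2 in the Dermo1-Cre experiment (15.6%) and 1 in the Sox9-Cre experiment (8.78%). The median log2 difference of the members was 0.16 in the *Vangl1/2* experiment and -0.08 in both *Wnt5a* experiments. Over all genes it was -0.0093, 0.00071 and 0.0013, in the order above. After removal of a trend with transcript length from every library, the median of the members in the *Vangl1/2* experiment was 0.077, against 0.0012 over all genes.

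**Figure D1:**
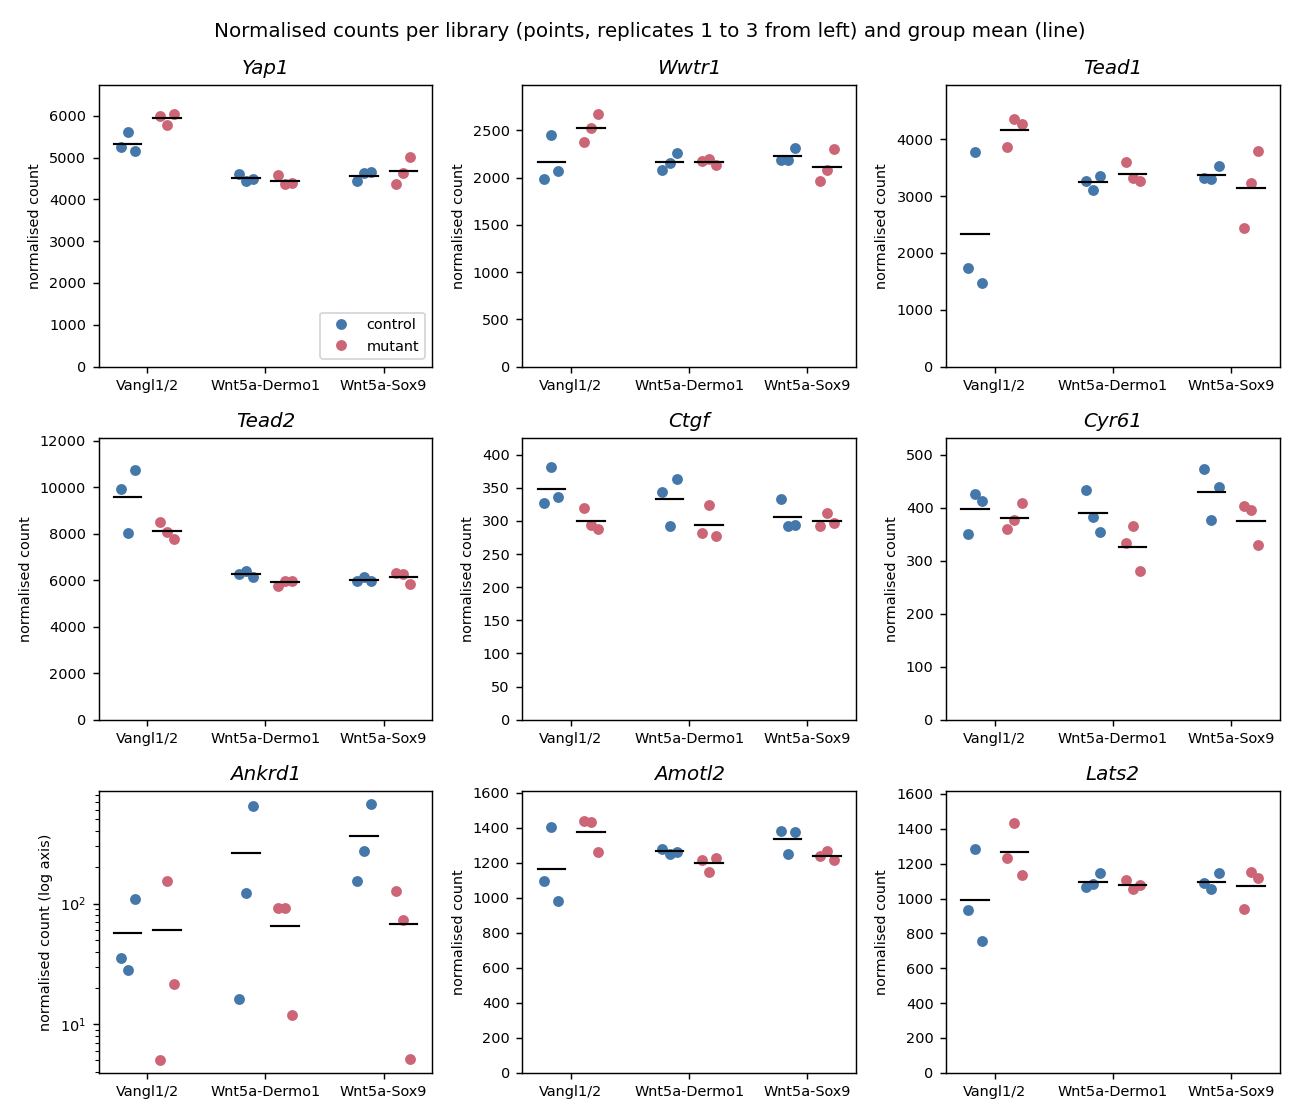
Normalised counts of the 9 members in each of 18 libraries, with controls in blue, mutants in red, replicates 1 to 3 from left to right and the arithmetic mean of 3 libraries as a black line. The tables were scaled separately, and the axis of *Ankrd1* is logarithmic. Control replicate 2 of the *Vangl1/2* experiment lies with the mutants for *Tead1* (3770 against 1742 and 1464 in the other controls), and *Ankrd1* ranges from 5.03 to 668.

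*Yap1*, the coactivator, was the more abundant of the Yap and Taz genes in all 3 tables. Per kilobase of its longest transcript, its level in controls was 1279 ± 58.6 normalised counts in the *Vangl1/2* experiment (SD, n = 3), 1081 ± 22.2 in the Dermo1-Cre experiment and 1095 ± 29.3 in the Sox9-Cre experiment. *Wwtr1* had 461 ± 52.3, 461 ± 18.6 and 475 ± 15.1 normalised counts per kilobase in the same order, and the ranges of the genes did not overlap. In the *Vangl1/2* experiment *Yap1* had 5248, 5610 and 5145 normalised counts in controls and 5996, 5785 and 6039 in mutants. Every mutant thus lay above every control, by a log2 difference of 0.16 (SE 0.086, 95% interval -0.04 to 0.35, adjusted p = 0.31). *Wwtr1* had 1987, 2446 and 2065 normalised counts in these controls and 2382, 2524 and 2675 in the mutants. The groups overlapped through control replicate 2 (log2 difference 0.23, SE 0.108, adjusted p = 0.26). With the transcript length trend removed, the log2 differences were 0.06 for *Yap1* and 0.077 for *Wwtr1* (limma adjusted p = 0.79 and 0.75).

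Neither coactivator gene passed the test when *Wnt5a* was targeted. *Yap1* had 4612, 4433 and 4481 normalised counts in the Dermo1-Cre controls and 4588, 4358 and 4400 in the mutants. The 95% interval of its log2 difference, -0.11 to 0.07, is the narrowest of the 9 members in that experiment apart from that of *Tead2*. *Wwtr1* had 2084, 2156 and 2258 normalised counts in these controls and 2173, 2192 and 2136 in the mutants (log2 difference 0.0014, 95% interval -0.10 to 0.10). With Sox9-Cre, *Yap1* had 4427, 4629 and 4648 normalised counts in controls and 4372, 4637 and 5009 in mutants (log2 difference 0.03, 95% interval -0.10 to 0.17). The *Wwtr1* counts there were 2185, 2190 and 2310 in controls and 1961, 2082 and 2300 in mutants (log2 difference -0.08, 95% interval -0.23 to 0.07).

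*Tead1* had the lowest p-value of the members in the *Vangl1/2* experiment. Its normalised counts were 1742, 3770 and 1464 in controls and 3861, 4363 and 4272 in mutants. All 3 mutants were above the controls, but control replicate 2 came within a small distance of them. The log2 difference was 0.97 (SE 0.307, 95% interval 0.26 to 1.67, adjusted p = 0.23 by limma). Its longest transcript, of 9964 bases, is longer than that of 97.5% of the genes tested. After removal of a trend with transcript length from every library, the log2 difference of *Tead1* was 0.48 (adjusted p = 0.59). Without control replicate 2 it was 1.38 (adjusted p = 3.4e-05), in a comparison that then called 43.2% of all genes.

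*Tead2*, the Tead gene with the highest level per kilobase among the members, had the opposite sign in the *Vangl1/2* libraries. Its normalised counts were 9939, 8040 and 10764 in controls and 8525, 8089 and 7788 in mutants, overlapping again through control replicate 2 (log2 difference -0.23, SE 0.125, adjusted p = 0.30). When *Wnt5a* was targeted by Dermo1-Cre, *Tead2* had 6287, 6409 and 6124 normalised counts in controls and 5758, 5971 and 5985 in mutants. All mutants were lower there, by a log2 difference of -0.09 (SE 0.038, adjusted p = 0.49). *Tead1* had 3275, 3115 and 3347 normalised counts in these controls and 3605, 3321 and 3262 in the mutants (log2 difference 0.06, adjusted p = 0.68).

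The Tead genes spread among the Sox9-Cre mutants. *Tead1* had 3317, 3304 and 3524 normalised counts in controls, while mutant replicate 1 had 2439, replicate 2 had 3224 and replicate 3 had 3788. The log2 difference of -0.12 (SE 0.136) was smaller than that spread. *Tead2* had 5957, 6142 and 5961 normalised counts in controls and 6307, 6281 and 5831 in mutants (log2 difference 0.03, SE 0.049).

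*Tead1* and *Tead2* moved in opposite directions from library to library. After centring each table, their log2 values had a Pearson r of -0.94 and a Spearman rho of -0.93 over 18 libraries (permutation within tables, p = 2e-05 and 1e-05, the latter the smallest 100000 permutations can give, adjusted over 45 relations 0.00045 and 0.00022). Without the 2 libraries farthest from the median of *Tead2*, r was -0.85. Within the tables r was -0.98, -0.86 and -0.80 over 6 libraries each. The relation was not particular to this pair. *Tead1* had r of 0.91 with *Wwtr1*, 0.83 with *Yap1* and 0.92 with *Lats2* (permutation, adjusted p = 0.0048, 0.0048 and 0.012). *Tead2* had r of -0.87 with *Wwtr1* (permutation, adjusted p = 0.0048). Within the Dermo1-Cre table these were weaker, at 0.26, 0.47, 0.37 and -0.27. *Ctgf*, *Cyr61* and *Ankrd1* had no adjusted p under 0.05 with any other member. Centring and permutation were by table and not by group. Differences between mutants and controls thus enter these values and p-values, here and in the relations given below. Transcripts of *Tead2* reach 3396 bases, and what part transcript length has in these relations was not tested.

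**Figure D2:**
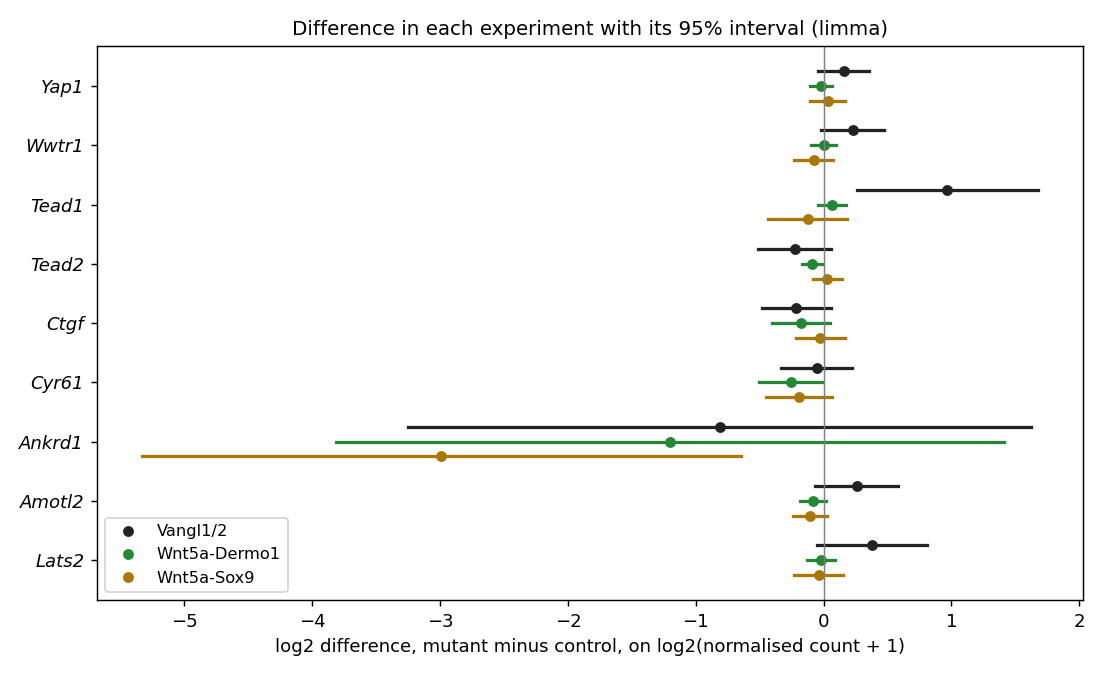
Log2 difference between mutant and control lungs (x axis, log2 scale, mutant minus control) for the 9 members in 3 experiments. Points are limma estimates from 3 against 3 libraries and lines are 95% intervals. The interval of *Tead1* lies above 0 in the *Vangl1/2* experiment (0.26 to 1.67), that of *Ankrd1* below 0 in the Sox9-Cre experiment (-5.34 to -0.65), and none of the differences passed the adjusted threshold.

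*Ctgf* (Ccn2) and *Cyr61* (Ccn1), the most used readouts of Yap and Taz, encode secreted matricellular proteins. Both were lower on average in the mutants of every experiment without passing the test in any. The differences of *Cyr61* in the *Vangl1/2* experiment and of *Ctgf* with Sox9-Cre were near 0 and changed sign under some alternatives. *Ctgf* in the *Vangl1/2* experiment had 327, 381 and 336 normalised counts in controls and 319, 294 and 288 in mutants. Its groups did not overlap (log2 difference -0.21, SE 0.116, 95% interval -0.48 to 0.05, adjusted p = 0.30). Dermo1-Cre controls had 344, 293 and 364 normalised counts of *Ctgf* and the mutants 282, 324 and 277, and the groups overlapped (log2 difference -0.18, SE 0.102, adjusted p = 0.57). The Sox9-Cre values of *Ctgf* were 333, 293 and 293 in controls and 293, 312 and 296 in mutants (log2 difference -0.03, 95% interval -0.22 to 0.17).

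*Cyr61* had its lowest p-value in the Dermo1-Cre experiment, with 433, 383 and 354 normalised counts in controls and 333, 366 and 281 in mutants. Mutant replicate 2, whose *Wnt5a* count lay within the controls, was also the mutant with the highest *Cyr61* count. This is 1 library, and a link between the 2 counts was not tested. The log2 difference was -0.26 (SE 0.112, 95% interval -0.51 to -0.01, adjusted p = 0.48), and without that library it was -0.35. Without mutant replicate 3 it was -0.15. *Cyr61* in the *Vangl1/2* experiment had 351, 427 and 413 normalised counts in controls and 359, 377 and 409 in mutants (log2 difference -0.05, 95% interval -0.33 to 0.22). With the transcript length trend removed this difference was 0.11. The Sox9-Cre counts of *Cyr61* were 474, 377 and 439 in controls and 404, 395 and 329 in mutants (log2 difference -0.19, SE 0.112, adjusted p = 1.0). Over the 18 centred libraries *Ctgf* and *Cyr61* had a Pearson r of 0.50 and a Spearman rho of 0.49 (permutation p = 0.045 and 0.060, adjusted over 45 relations 0.14 and 0.18), with r = 0.41 without the 2 libraries farthest from the median of *Cyr61*.

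*Ankrd1*, which encodes a stress-responsive ankyrin repeat protein of heart and skeletal muscle, varied more than any other member. Its normalised counts were 35.1, 28.0 and 108 in the *Vangl1/2* controls and 5.03, 153 and 21.7 in the mutants (log2 difference -0.81, SE 1.06, adjusted p = 0.66). With Dermo1-Cre they were 16, 123 and 643 in controls and 91.8, 92.3 and 12 in mutants (log2 difference -1.20, SE 1.17, adjusted p = 0.75). With Sox9-Cre they were 155, 275 and 668 in controls and 126, 72.4 and 5.13 in mutants, and all 3 mutants lay below the controls. There the log2 difference was -2.99 (SE 1.02, 95% interval -5.34 to -0.65, adjusted p = 1.0). The lowest of these values rest on 5 reads.

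Heart muscle markers moved with *Ankrd1*. All 20 markers of cardiomyocytes on the list were found by symbol in each table, and none was at 0 in every library of a table. Their summed normalised counts ranged from 2035 to 6374 in the *Vangl1/2* controls and from 685 to 9129 in the mutants. The sums ranged from 1537 to 24736 and from 1087 to 5504 in Dermo1-Cre controls and mutants, and from 6546 to 22330 and from 1176 to 7376 in Sox9-Cre controls and mutants. On centred log2 values, *Ankrd1* and this sum had a Pearson r of 0.98 and a Spearman rho of 0.98 over 18 libraries (permutation p = 1e-05 for both, the smallest possible, adjusted over 45 relations 0.00045 and 0.00022). It was 0.98 without the 2 libraries farthest from the median of the sum, and 0.99, 0.98 and 0.98 within the tables, in the order above, over 6 libraries each. *Ankrd1* spanned 133-fold over the 18 libraries and the sum 36.1-fold, while *Ankrd1* counts per 1000 marker counts spanned 6.87-fold.

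Per 1000 cardiomyocyte marker counts, *Ankrd1* had 15.4 ± 1.63 counts in the *Vangl1/2* controls (SD, n = 3) and 11.7 ± 4.74 in the mutants. For Dermo1-Cre the values were 17.2 ± 7.96 and 17.9 ± 7.58. For Sox9-Cre the controls had 23.6, 27 and 29.9 and the mutants 17.1, 21.7 and 4.36, and the groups did not overlap. With 3 against 3 libraries, an exact permutation test cannot give a p below 0.1. In bulk RNA, fewer cells of a type and less RNA per cell cannot be told apart. How much heart muscle a library holds, and from which tissue, was not stated.

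**Figure D3:**
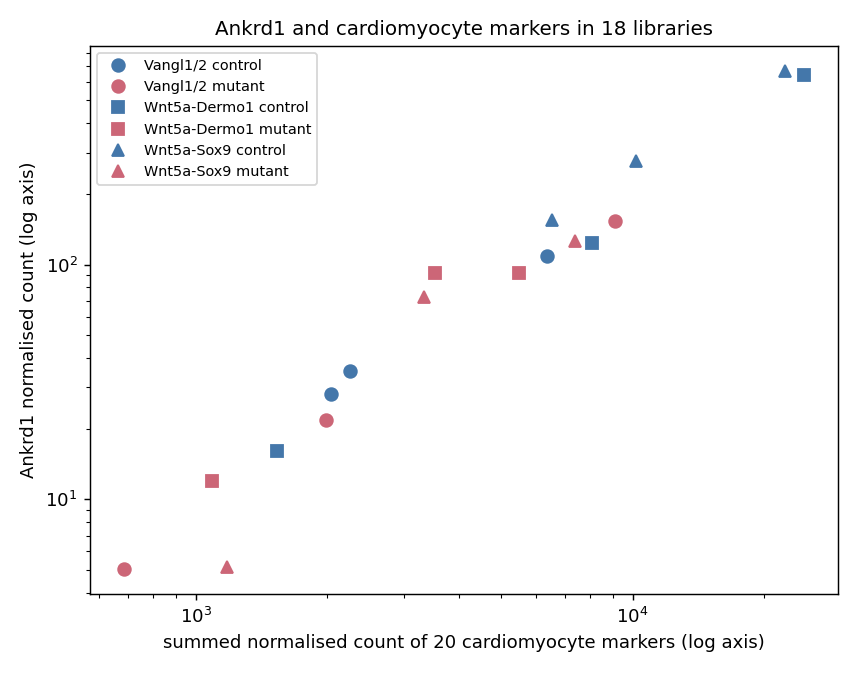
*Ankrd1* normalised count (y axis, log) against the summed normalised count of 20 cardiomyocyte markers (x axis, log) in 18 libraries. Colour marks control (blue) or mutant (red) and shape marks the experiment. The points follow a single band from 685 summed counts with 5.03 of *Ankrd1* to 24736 summed counts with 643.

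The feedback genes *Amotl2*, an angiomotin that binds Yap at junctions, and *Lats2*, a kinase that phosphorylates Yap, were higher on average in the *Vangl1/2* mutants, and lower in both *Wnt5a* experiments, with no call in any. In the *Vangl1/2* experiment *Amotl2* had 1097, 1407 and 984 normalised counts in controls and 1440, 1433 and 1261 in mutants (log2 difference 0.26, SE 0.142, adjusted p = 0.30). *Lats2* had 935, 1281 and 759 normalised counts in these controls and 1230, 1435 and 1133 in the mutants (log2 difference 0.38, SE 0.188, adjusted p = 0.28). For both genes control replicate 2 was the highest control and overlapped the mutants. With the transcript length trend removed, the log2 differences were 0.15 for *Amotl2* and 0.18 for *Lats2*.

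With *Wnt5a* targeted by Dermo1-Cre, *Amotl2* had 1279, 1254 and 1264 normalised counts in controls and 1214, 1150 and 1228 in mutants, and all mutants were lower (log2 difference -0.08, SE 0.046, adjusted p = 0.57). *Lats2* had 1064, 1082 and 1144 in these controls and 1106, 1056 and 1075 in the mutants (log2 difference -0.02, 95% interval -0.13 to 0.09). With *Wnt5a* targeted by Sox9-Cre, *Amotl2* had 1381, 1254 and 1377 normalised counts in controls and 1239, 1266 and 1217 in mutants (log2 difference -0.11, SE 0.057, adjusted p = 1.0). The *Lats2* counts there were 1087, 1053 and 1146 in controls and 940, 1154 and 1115 in mutants (log2 difference -0.04, 95% interval -0.23 to 0.15).

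Leaving out control replicate 2 of the *Vangl1/2* experiment changed the calls for 6 members. Without it *Yap1* (log2 difference 0.19, adjusted p = 0.029), *Wwtr1* (0.32, 0.0056), *Tead1*, *Amotl2* (0.40, 0.0043) and *Lats2* (0.58, 0.0030) were called higher and *Tead2* (-0.35, 0.0031) lower in the mutants. The same comparison called 6183 of 14303 genes, 43.2%. The 2 controls left are replicates 1 and 3, whose *Tead1* counts were the lowest of all libraries. This pair is compared with 3 mutants under a spread pooled over genes by limma. *Ctgf*, *Cyr61* and *Ankrd1* were not called without control replicate 2. In no other omission of a single library was any member called. Without control replicate 3 the log2 differences were smaller, at 0.20 for *Lats2*, 0.15 for *Amotl2* and -0.14 for *Tead2*.

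**Figure D4:**
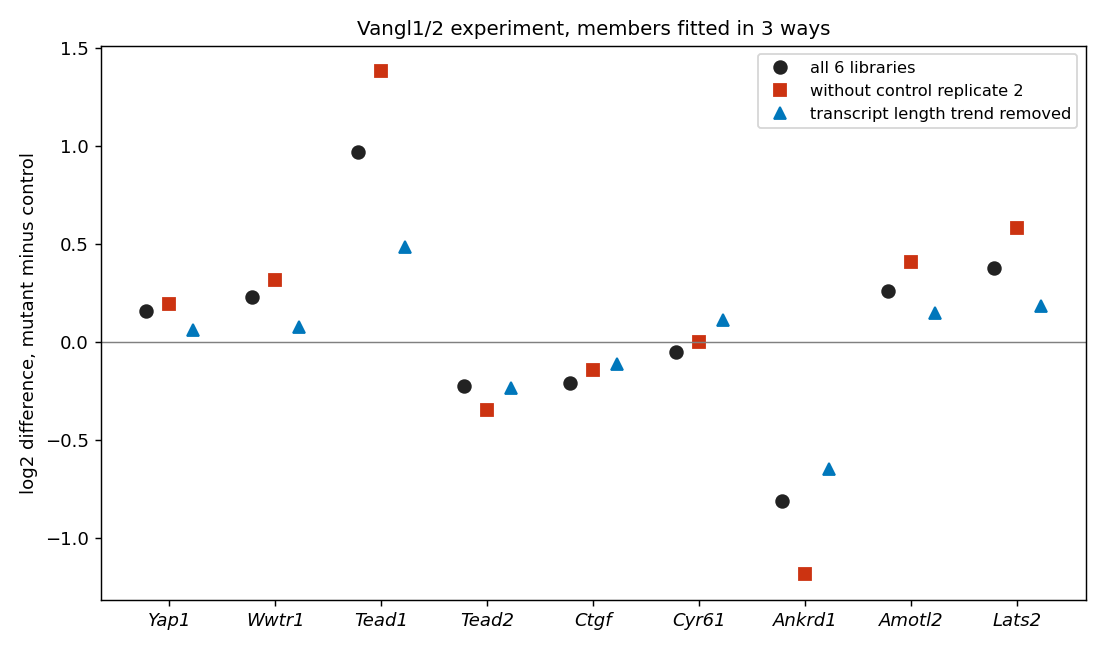
Log2 difference between mutant and control (y axis, log2 scale, mutant minus control) of the 9 members in the *Vangl1/2* experiment, from all 6 libraries (black), without control replicate 2 (red) and with the transcript length trend removed (blue). Without control replicate 2 *Tead1* moves from 0.97 to 1.38, and with the trend removed to 0.48.

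The changes were also compared between experiments, in a limma fit over all 18 libraries and the 13977 genes tested in every table. No member's change differed at an adjusted p under 0.05 in any of the 3 pairs of experiments, where 0.0143%, 0.0143% and 0.0% of all genes did, nor by edgeR or DESeq2. At an unadjusted p under 0.05, 3 members differed between the *Vangl1/2* and Dermo1-Cre experiments against 17.2% of all genes, 5 between *Vangl1/2* and Sox9-Cre against 25%, and 0 between the *Wnt5a* experiments against 2.63%. The lowest p-value was that of *Tead1*, whose log2 difference in the *Vangl1/2* experiment exceeded that in the Sox9-Cre experiment by 1.09 (SE 0.328, 95% interval 0.40 to 1.79, adjusted p = 0.16). It exceeded that in the Dermo1-Cre experiment by 0.90 (SE 0.328, adjusted p = 0.25). *Amotl2* differed by 0.37 and 0.34 for the same pairs (SE 0.136, adjusted p = 0.16 and 0.25). The tables were scaled separately and each has its own controls. Without *Vangl1/2* control replicate 2, the changes of 6 members differed from the Dermo1-Cre experiment at an adjusted p under 0.05, against 32.8% of all genes, and those of 5 from the Sox9-Cre experiment, against 39.3%.

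Among the members of the Hippo pathway list, from Mst regulators to Tead cofactors, 29 genes were found and 27 tested in the *Vangl1/2* table. In that experiment 10 had non-overlapping groups, all higher in the mutants, against 13.6% of all genes, and 0 were called at an adjusted p under 0.05. Their median log2 difference was 0.23 against -0.01 over all genes, and 0.06 with the transcript length trend removed. *Taok1*, a kinase upstream of Mst, had the largest difference among the genes whose groups did not overlap, with 1586, 2523 and 1567 normalised counts in controls and 2809, 2975 and 2993 in mutants (log2 difference 0.66, SE 0.179, adjusted p = 0.23). Without control replicate 2, 15 of the 27 were called higher and 0 lower, against 43.2% of all genes called in either direction.

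The same list had medians of -0.0036 and 0.00029 over 27 and 28 tested genes in the Dermo1-Cre and Sox9-Cre experiments, and its groups did not overlap for 4 and 3 genes, against 15.6% and 8.78% of all genes. For Dermo1-Cre, *Taok1* had 2314, 2109 and 2295 normalised counts in controls and 2767, 2331 and 2443 in mutants (log2 difference 0.16, adjusted p = 0.47). *Taok3*, of the same kinase family, had 434, 420 and 398 in controls and 381, 398 and 374 in mutants (log2 difference -0.12, adjusted p = 0.58). For Sox9-Cre, *Taok2* had 2116, 2349 and 2458 normalised counts in controls and 2480, 2519 and 2565 in mutants (log2 difference 0.13). There *Vgll3*, a cofactor that binds Tead, had 76.3, 54.8 and 52.9 in controls and 42.0, 49.3 and 37.9 in mutants (log2 difference -0.49, SE 0.203, adjusted p = 1.0).

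Of 17 other reported targets of Yap and Taz, all tested in each table, 0 were called in any experiment. At an unadjusted p under 0.05, 5 were higher and 0 lower in the *Vangl1/2* mutants, against 12% and 8.56% of all genes. In the Dermo1-Cre mutants 1 was higher and 1 lower, against 5.42% and 4.76%, and in the Sox9-Cre mutants 1 was higher and 2 lower, against 1.08% and 2.81%. Their medians were 0.27, -0.02 and -0.04, and 0.07 in the *Vangl1/2* experiment with the length trend removed. *Rbms3*, which encodes an RNA-binding protein, led in the *Vangl1/2* experiment with 1967, 2792 and 1753 normalised counts in controls and 2900, 3112 and 3425 in mutants (log2 difference 0.56, SE 0.169, adjusted p = 0.23). *Dock5*, an activator of Rac, had 308, 313 and 335 in controls and 362, 369 and 399 in mutants of the Dermo1-Cre experiment (log2 difference 0.24, adjusted p = 0.36). The kinase gene *Nuak2* had 132, 130 and 121 normalised counts in these controls and 105, 91.3 and 109 in the mutants (log2 difference -0.33, SE 0.123, adjusted p = 0.43).

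In the Sox9-Cre experiment the target with the lowest log2 difference among non-overlapping genes was *Igfbp3*, a binding protein of insulin-like growth factors. It had 1054, 776 and 958 normalised counts in controls and 722, 646 and 528 in mutants (log2 difference -0.56, SE 0.138, adjusted p = 1.0). *Nt5e*, a cell-surface enzyme that makes adenosine, had 30.7, 26.9 and 23.9 in these controls and 32.2, 36.2 and 34.9 in the mutants (log2 difference 0.34, SE 0.206).

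The Mrtf and Srf factors form the other main mechanosensitive route to the nucleus, since they respond to actin polymerisation. Of their targets and components, 18 of 20 listed genes were found and tested in each table. Dermo1-Cre mutants had 11 of them lower and 0 higher at an unadjusted p under 0.05, against 4.76% lower among all genes, and 0 passed the adjusted threshold. The groups did not overlap for 7 of them, all lower, against 7.92% of all genes. The median log2 difference was -0.25. *Myl9*, the regulatory light chain of smooth muscle myosin, had 1836, 1993 and 3356 normalised counts in controls and 1159, 1746 and 1192 in mutants (log2 difference -0.78, SE 0.219, adjusted p = 0.32). Without mutant replicate 2, 12 of the 18 were lower at an unadjusted p under 0.05, against 6.14% of all genes, and 0 were called.

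Smooth muscle markers share genes such as *Acta2* and *Tagln* with this list, and 0 of 7 were called in the Dermo1-Cre experiment. The sum of 7 smooth muscle markers was 15415, 13579 and 18212 in the Dermo1-Cre controls and 9526, 14299 and 9797 in the mutants. Mutant replicate 2 thus lay within the controls and the other mutants below them, and the part of these markers in the lower Mrtf and Srf targets was not tested. For *Vangl1/2*, 2 genes of the list were higher and 6 lower at an unadjusted p under 0.05, against 12% and 8.56% of all genes, and 0 were called. *Mkl2*, which encodes an Mrtf, had 984, 1436 and 790 normalised counts in controls and 1690, 1579 and 1739 in mutants (log2 difference 0.68, SE 0.197, adjusted p = 0.23). *Actg2*, a smooth muscle actin, had 1033, 1228 and 1510 in controls and 825, 495 and 953 in mutants (log2 difference -0.77, SE 0.245, adjusted p = 0.23). The sum of the 7 smooth muscle markers, of which it is 1, was 11040, 13607 and 14782 in these controls and 8933, 9699 and 12059 in the mutants, with a median log2 difference of -0.47 and 0 called. These groups overlapped, and the part of the markers in the lower genes of the list was not tested. *Tpm1*, a tropomyosin, was in the Sox9-Cre experiment the only gene of the list whose groups did not overlap, against 8.78% of all genes, with 9201, 8898 and 9768 normalised counts in controls and 8730, 8514 and 7762 in mutants (log2 difference -0.16, SE 0.061, adjusted p = 1.0).

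Of 22 immediate early genes, which respond to stress and handling as well as to growth factors, 19 were tested in the *Vangl1/2* table and 20 in the others, with 0 called. Their medians were -0.12 in the *Vangl1/2* experiment, -0.15 with Dermo1-Cre and -0.09 with Sox9-Cre. *Klf2*, a factor induced by flow in endothelium, had 373, 305 and 384 normalised counts in the *Vangl1/2* controls and 259, 261 and 221 in the mutants (log2 difference -0.51, SE 0.138, adjusted p = 0.23). *Gadd45b*, a stress response gene, had 89.2, 93.3 and 98.1 in the Dermo1-Cre controls and 73.6, 87.3 and 67.9 in the mutants (log2 difference -0.30, adjusted p = 0.52). The transcription factor gene *Fos* had 35.7, 27.9 and 31.9 in the Sox9-Cre controls and 12.7, 16.1 and 15.4 in the mutants (log2 difference -1.06, SE 0.245, adjusted p = 1.0).

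**Figure D5:**
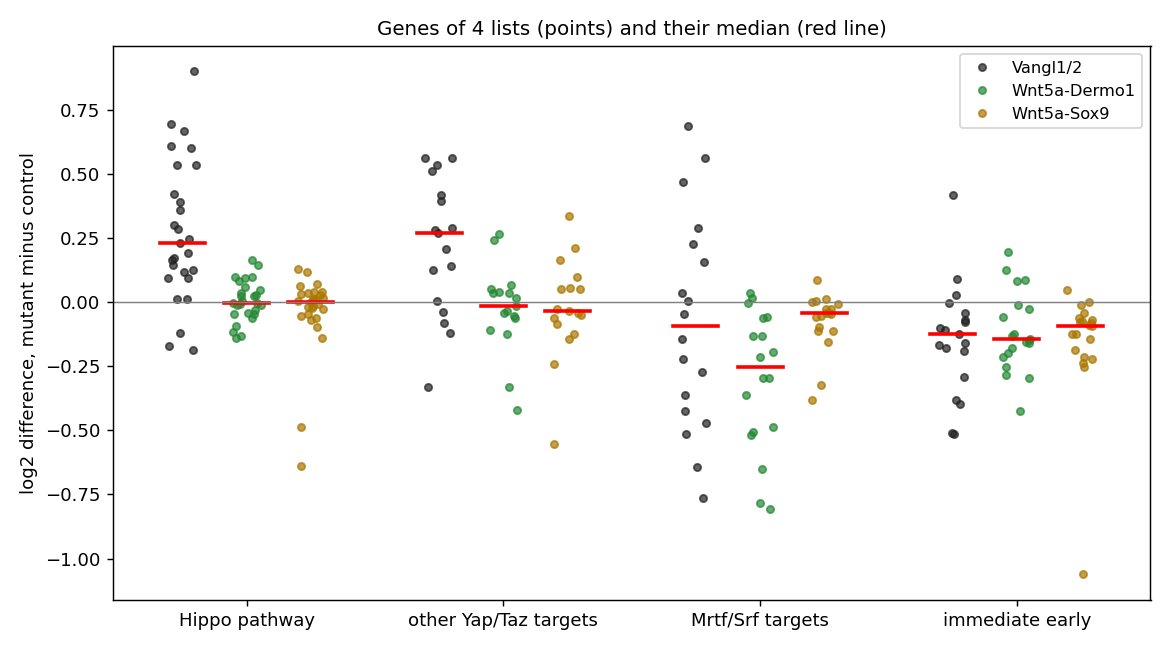
Log2 difference between mutant and control (y axis, log2 scale, mutant minus control) for the tested genes of 4 lists in 3 experiments, with the median of each list in red. Hippo genes and other Yap and Taz targets have medians of 0.23 and 0.27 in the *Vangl1/2* experiment, and Mrtf and Srf targets have a median of -0.25 in the Dermo1-Cre experiment.

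The order of the members' levels per kilobase in controls was led by *Tead2*, *Yap1* and *Wwtr1* in all 3 tables, with no overlap between these neighbours. *Tead2* had 2821 ± 411 normalised counts per kilobase in the *Vangl1/2* controls, 1847 ± 42.1 in the Dermo1-Cre controls and 1773 ± 31.1 in the Sox9-Cre controls (SD, n = 3). In the *Wnt5a* experiments *Tead1* came next, with 326 ± 11.9 and 339 ± 12.4 normalised counts per kilobase, followed by *Amotl2* with 292 ± 2.91 and 309 ± 16.7, and these neighbours did not overlap. Among *Vangl1/2* controls *Amotl2* (269 ± 50.7 normalised counts per kilobase), *Tead1* (233 ± 126), *Cyr61* (197 ± 19.96) and *Lats2* (191 ± 51.2) overlapped in turn. *Ctgf* had 140 ± 11.6, 134 ± 14.6 and 123 ± 9.28 normalised counts per kilobase, and *Ankrd1* 28.3 ± 22, 129 ± 166 and 181 ± 133.

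The 2 genes most like each member were sought by Pearson's r of centred log2 values over the 18 libraries, among 13977 genes. For *Ankrd1* they were the cardiac sarcomere genes *Tnnt2* (r = 0.98) and *Mybpc3* (0.98), both on the list of cardiomyocyte markers. For *Tead1* they were *Wnk1* and *Mast4* (both 0.99), and for *Tead2* *Eif4a3* (0.99) and *Gps1* (0.98). *Yap1* was most like *Scaf11* (0.96) and *Chml* (0.95), and *Wwtr1* most like *Itgav* (0.96), an integrin gene, and *Mef2c* (0.95). *Lats2* was most like *Fras1* and *Slit3* (both 0.96), and *Amotl2* most like *Fbxl7* (0.94) and *Zfp46* (0.93). Within the *Vangl1/2*, Dermo1-Cre and Sox9-Cre tables, r was 0.98, 0.15 and 0.84 for *Lats2* with *Slit3*. For *Amotl2* with *Zfp46* it was 0.98, 0.73 and 0.51 in the same order. With *Fras1* and *Fbxl7*, r was at least 0.66 in each table. *Ctgf* and *Cyr61* had weaker partners, with *ORF63* (0.82) and *Cxcl12* (0.78) for *Ctgf* and *Rab2b* and *Mid1* (both 0.81) for *Cyr61*. These genes are the highest of a search, and the libraries share their tables and the length trend of the *Vangl1/2* experiment.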

How the data were processed

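Per the labels, RNA was extracted from embryonic lungs with the RNeasy Mini Kit, and the submitters' processing notes name Trim Galore, HISAT2, featureCounts, DESeq2 and the build mm10, with no role. Whether counting used strand was not given in the sources used here. The authors deposited 1 table per experiment, with a signal per library made from gene counts divided by a size factor. Its mean, log2 fold change and p-value columns from the authors' own comparison were not used. Every value was a whole multiple of 1 read (tolerance 0.01 reads), so reads were recovered for edgeR (version 4.0.16) and DESeq2 (version 1.42.0).

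The main test was limma (version 3.58.1, R 4.3.3) with a mean-variance trend on log2(normalised count + 1). Genes needed at least 10 normalised counts in at least 3 of 6 libraries, which left 14303, 14277 and 14293 genes. The Benjamini-Hochberg adjustment was used with a threshold of 0.05. It was tested on simulated data. Alternatives changed the pseudocount (0.5 or 5), filter, scaling, test and libraries, added a replicate block, or removed each library's loess trend (span 0.5) on the length of the longest GENCODE M21 transcript, known for 98.4% of genes. Settings for the pathway lists other than the main test were added after the data were seen. Groups came from the genotype labels. Same-numbered libraries were not paired (correlations of deviations from -0.22 to 0.30). Lengths and positions are those of mm10, and promoters come from RefSeq (GRCm38.p6).

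The members and the lists were chosen with earlier results of these data known. The genes named are the members, the targeted genes and, for each list and experiment, genes with an adjusted p under 0.05 or otherwise the largest difference in each direction among genes whose groups do not overlap, with the 2 genes most like each member. Markers of 10 cell types were summed, of which those of cardiomyocytes and smooth muscle are given because they touch a result.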

Additional observations from a re-analysis of the deposited data

How the results depend on the processing

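*Ankrd1* rests on 5 reads in its lowest libraries, and 3 libraries per group limit every comparison. The count of members changed was 0 in each experiment and 0 between experiments under every alternative but 1. Leaving out each library in turn, it ranged from 0 to 6 in the *Vangl1/2* experiment and from 0 to 6 between experiments, the 6 coming from the omission of control replicate 2, and was 0 in the Dermo1-Cre and Sox9-Cre experiments. No result between experiments was fitted with a block or by limma with TMM scaling, while edgeR used TMM scaling there too. With the replicate block the count was 0 in each experiment, as without it, and over all genes it called 0 in the *Vangl1/2*, 16 in the Dermo1-Cre and 0 in the Sox9-Cre experiment, against 1, 2 and 0. DESeq2 called 11, 101 and 9 genes, and edgeR 1, 2 and 0. The samples share a replicate number only, and the block moved no member's call.

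Members that DESeq2 left without an adjusted p were counted as not called. Of the members' log2 differences under the alternatives, 353 kept their direction and side of the threshold. Another 6 became called (all without *Vangl1/2* control replicate 2) and 19 changed sign, none of them called. Those changes of sign were in values near 0 or in *Ankrd1*. In the *Vangl1/2* experiment, *Cyr61* was 0.11 with the length trend removed and ranged from -0.14 to 0.0016 without each library in turn. *Ankrd1* was 0.075 by edgeR and 0.074 by DESeq2, and ranged from -2.05 to 0.28. In the Dermo1-Cre experiment, *Wwtr1* was -0.0017 with TMM scaling, -0.0013 by edgeR and -0.024 with the length trend removed, and ranged from -0.026 to 0.032. *Tead1* was -0.036 there with the length trend removed, *Ankrd1* ranged from -2.55 to 0.068, and *Lats2* from -0.044 to 0.0080. In the Sox9-Cre experiment the ranges were -0.020 to 0.078 for *Yap1*, -0.27 to 0.048 for *Tead1*, -0.058 to 0.035 for *Ctgf* and -0.097 to 0.051 for *Lats2*. The cause of these changes was not tested. *Ankrd1* in the Sox9-Cre experiment ranged from -3.85 to -1.67.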
